A study of Rattus norvegicus with 8 samples.

Results

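The calcium/calmodulin-dependent (CaM) protein kinases and the phosphatase calcineurin were followed here through 10 genes of the array, taken by name: Camk2a, Camk2b, Camk2d and Camk2g for the subunits of CaM kinase II, Camk4, Ppp3ca and Ppp3cb for the catalytic subunit of calcineurin, Ppp3r1 for its regulatory subunit, and Rcan1 and Rcan2 for its inhibitors. They were carried by 17 probes on 26 spots, of 35199 gene names, 41012 probes and 43379 non-control spots in all. RNA was compared between dentate gyri (DG) of 4 castrated, oil-injected rats with status epilepticus (COS) and of 4 castrated, estradiol (E2)-replaced rats with status epilepticus (CES). All 8 animals were adult female Sprague-Dawley rats, ovariectomized (OVX) a week before the hormone or oil, and all had status epilepticus (SE), a state of continuous seizures, induced by kainic acid. The sample records give 4 doses of 2 μg E2 at intervals of 24 h, 2 of them before and 2 after SE, and 16 mg/kg kainic acid, with SE ended by pentobarbital after 5 h. The methods of the study place the last E2 dose before SE, give a lower dose of kainic acid and diazepam in place of pentobarbital, and name differing times of tissue collection, so these points stay unsettled. Rats without SE were not analysed here.

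Calcium entering a neuron binds calmodulin, and the complex switches on both kinds of enzyme. CaM kinase II is assembled from many copies of its α, β, γ and δ subunits, stays active after autophosphorylation and is known for its part in strengthening excitatory synapses, whereas Camk4 encodes a mostly nuclear kinase that phosphorylates CREB. Calcineurin pairs a catalytic with a regulatory subunit, acts at lower calcium, favours synaptic depression and sends NFAT transcription factors to the nucleus. The Rcan proteins bind and inhibit it, and Rcan1 is itself a gene induced through calcineurin and NFAT.

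The probes that carry the CaM kinase II subunits are shown first, because the subunits are close relatives and the 60 bases decide which one a spot reads. The 4 given are those whose coordinates (rn4) run over more than the probe length, so that they cross an intron. They lie at chr18:56903621-56918266 on the plus strand for Camk2a, chr14:86645232-86645447 on the minus strand for Camk2b, chr2:224057010-224064335 on the plus strand for Camk2d and chr15:3783656-3785221 on the plus strand for Camk2g. In order, the sequences were:
Camk2a: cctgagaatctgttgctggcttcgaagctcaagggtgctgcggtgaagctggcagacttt
Camk2b: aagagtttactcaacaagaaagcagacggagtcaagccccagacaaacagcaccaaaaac
Camk2d: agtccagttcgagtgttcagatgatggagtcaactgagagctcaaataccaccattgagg
Camk2g: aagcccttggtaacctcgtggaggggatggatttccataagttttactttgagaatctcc
Each is written 5′ to 3′ as the file lists it, with no part set in capitals. Which exons or untranslated regions the other 13 probes lie in was not looked up, because no annotation of rn4 was used here.

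A level is the log2 of a gene's background-subtracted signal over the median of the valid spots of its array channel, and a difference is CES minus COS on that scale. A spot was valid where its foreground reached 2 times the local background. Of the 10 genes, 9 were quantified, each well above background by the scanner software in all 8 rats. The median difference of the 21332 genes tested was -0.25, so each difference is also given relative to that median. The share of valid spots ran from 74.6% to 88.9% in COS and from 70.7% to 81.5% in CES animals, no spot was saturated, and CES replicate 2 stood apart, with a correlation of 0.963 with the other CES rats where the other 7 rats gave 0.977 to 0.986 with their own group.

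Transcripts of 2 CaM kinase II subunits and of 1 catalytic subunit of calcineurin were higher in the E2-replaced rats, and those of both calcineurin inhibitors were lower. Camk2a, Camk2g and Ppp3ca rose, Rcan1 and Rcan2 fell, and Camk2b, Camk4, Ppp3cb and Ppp3r1 did not pass the test (limma, Benjamini-Hochberg adjustment over all genes, threshold 0.05). Against these 3 of 9 genes called higher, 5.8% of all genes tested were called higher. Against the 2 called lower, 28.3% were called lower, so under this scaling a fall was far more common than a rise. The 4 CES values all exceeded the 4 COS values for Camk2a and Ppp3ca, as for 1.61% of all genes, and below for Rcan2, as for 19.8% of all genes. The median difference of the 9 genes was 0.38, which is 0.64 relative to all genes. The calls depend on the scaling. When each channel was scaled over 1 common set of spots, those valid in every animal, or by loess, by quantiles or as in the deposited log2 table, 5 of the 9 were called higher and none lower, since Camk2b and Ppp3cb joined and Rcan1 and Rcan2 no longer passed. Of all genes called, 17.0% were higher under the main scaling and 57.9% to 66.1% under these. That was 1238 genes called higher under the main scaling and 3042 to 3348 under these. No member was called in either direction under normexp background correction, without the filter on valid spots or by the methods' t-test after adjustment.

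**Figure D1:**
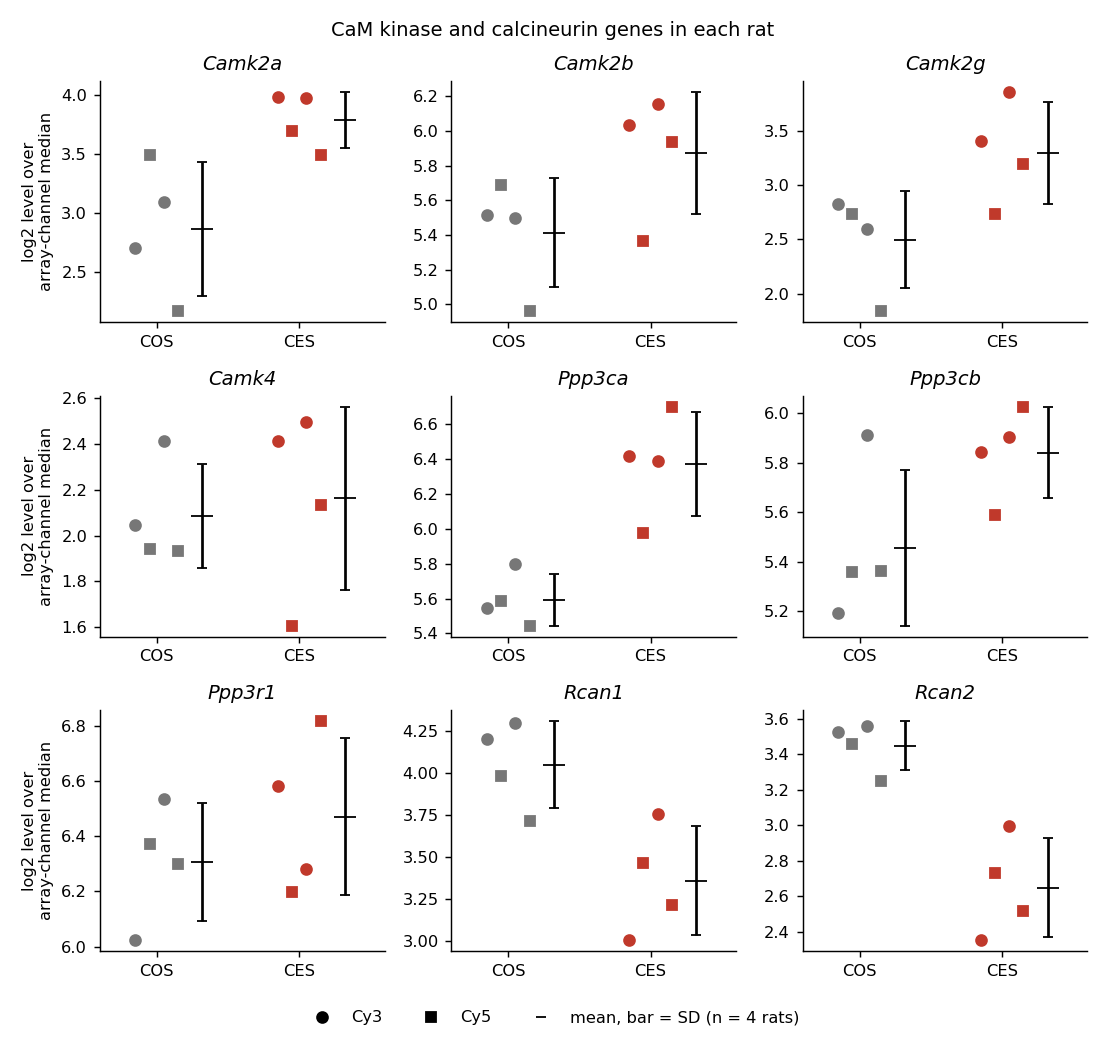
Log2 level over the array-channel median (vertical axis, a separate range for each gene) of the 9 quantified genes in each COS (grey) and CES (red) rat. Circles are Cy3, squares Cy5, and the line with its bar is the mean ± SD of 4 rats. The groups are apart for Camk2a, Ppp3ca and Rcan2 and overlap for the other 6 genes.

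Camk2a, the α subunit of CaM kinase II and a marker of forebrain excitatory neurons, had the largest difference of the 9. Its level was 2.70, 3.49, 3.09 and 2.16 in COS replicates 1 to 4 and 3.98, 3.69, 3.98 and 3.49 in CES replicates 1 to 4. The lowest CES rat stood only just above the highest COS rat, and the COS rats were the more scattered. The means were 2.86 ± 0.56 (SD, n = 4) and 3.79 ± 0.24 (SD, n = 4), a difference of 0.92 ± 0.27 (SE, adjusted p = 0.0256, limma) or 1.90-fold. Relative to all genes it was 1.18, and 97.5% of the genes tested had a lower difference. It was read by a probe printed 10 times and by the intron-spanning probe shown above, whose differences were 0.92 ± 0.27 (SE, adjusted p = 0.0258) and 0.87 ± 0.22 (SE, adjusted p = 0.0144). The 2 differences were alike, but at neither probe alone were the groups apart. At the intron-spanning probe CES replicate 2, at 0.44, lay among COS rats at 0.00 to 0.85. At the probe printed 10 times CES replicate 4, at 3.607, lay just below COS replicate 2, at 3.612. Among its 10 copies the spread within a rat was an SD of 0.19 to 0.39. The software marked 4 of the member spots as outliers, all of them copies of this probe.

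Camk2g, the γ subunit, rose by nearly as much. Its level was 2.82, 2.73, 2.59 and 1.84 in the COS rats and 3.40, 2.73, 3.85 and 3.19 in the CES rats. CES replicate 2 lay among the COS rats and the other 3 CES rats above them all. The difference was 0.80 ± 0.23 (SE, adjusted p = 0.0259, limma), or 1.05 relative to all genes. It rests on 1 probe, the intron-spanning one.

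Camk2b, the β subunit, which tethers the kinase to actin, pointed the same way without passing the test. The COS rats gave levels of 5.51, 5.69, 5.50 and 4.96 and the CES rats 6.04, 5.36, 6.16 and 5.94. All CES rats but replicate 2 stood above the COS rats. The difference was 0.46 ± 0.21 (SE, adjusted p = 0.115, limma), or 0.71 relative to all genes, and its 2 quantified probes gave 0.33 ± 0.22 and 0.50 ± 0.21 (SE). Without CES replicate 2 it was 0.60 and without COS replicate 2 it was 0.63, and it then passed. The remaining probe was never well above background.

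Camk2d, the δ subunit, gave no fold. Its 2 probes were valid in all 4 COS rats and in 3 of the 4 CES rats, and no COS rat had either of them well above background, whereas 1 CES rat had 1 of them so.

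Camk4 did not pass the test. Its level was 2.05, 1.94, 2.41 and 1.93 in the COS rats and 2.41, 1.61, 2.49 and 2.13 in the CES rats. Every COS value lay within the CES range, with a difference of 0.08 ± 0.18 (SE, adjusted p = 0.768, limma), or 0.33 relative to all genes. As fitted, the sign turned in 3 of the fits that left out 1 rat.

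Among the calcineurin subunits, Ppp3ca, which encodes the catalytic Aα subunit that predominates in brain, rose with the clearest gap between the groups. Its level was 5.55, 5.59, 5.80 and 5.44 in the COS rats and 6.42, 5.97, 6.39 and 6.70 in the CES rats. The COS rats lay close together and every CES rat was above them. The difference was 0.78 ± 0.19 (SE, adjusted p = 0.0134, limma), or 1.03 relative to all genes. Its 2 probes, on chromosome 2 at 234130073 to 234130132 and at 234409032 to 234409091 (rn4), gave 0.79 ± 0.25 and 0.78 ± 0.19 (SE), both past the threshold. At the first of these the groups overlapped, with CES replicate 2 at -0.08 among COS rats at -0.12 to 0.62. Its mean COS level was 0.28 against 6.57 at the second, so the gap between the groups is that of the second probe. The bases of the first also lie before the start annotated for Ppp3ca in RefSeq (GRCr8).

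Ppp3cb, the catalytic Aβ subunit, had a level of 5.19, 5.36, 5.91 and 5.36 in the COS rats and 5.84, 5.59, 5.90 and 6.03 in the CES rats. COS replicate 3 lay within the CES range and the other 3 COS rats below it. The difference was 0.38 ± 0.20 (SE, adjusted p = 0.155, limma), or 0.64 relative to all genes. Ppp3r1, the calcium-binding regulatory subunit B, had 6.02, 6.37, 6.54 and 6.30 in the COS rats and 6.58, 6.20, 6.28 and 6.82 in the CES rats. Its groups were interleaved, the difference was 0.16 ± 0.20 (SE, adjusted p = 0.552, limma), 0.42 relative to all genes, and its 2 probes gave 0.17 ± 0.20 and -0.05 ± 0.23 (SE).

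Rcan2, an inhibitor of calcineurin abundant in brain, was lower in each CES rat than in any COS rat. Its level was 3.53, 3.46, 3.56 and 3.25 in the COS rats and 2.35, 2.73, 2.99 and 2.52 in the CES rats. The difference was -0.80 ± 0.18 (SE, adjusted p = 0.0106, limma), or -0.54 relative to all genes, and 17.6% of the genes tested had a lower difference. Its 2 probes did not give one answer: A_42_P634930 fell with a difference of -1.02 ± 0.18 (SE, adjusted p = 0.00478), whereas A_44_P325189 gave -0.37 ± 0.19 (SE, adjusted p = 0.168), which is -0.10 relative to all probes. Of the 2 probes, 1 therefore passed the test.

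Rcan1, the inducible inhibitor, had a level of 4.20, 3.98, 4.30 and 3.71 in the COS rats and 3.00, 3.46, 3.76 and 3.21 in the CES rats. CES replicate 3 lay just above COS replicate 4 and the groups were otherwise apart. The difference was -0.69 ± 0.20 (SE, adjusted p = 0.0272, limma), or -0.44 relative to all genes, and 22.5% of the genes tested had a lower difference. It was read by 1 probe. By probe, 5 of the 14 quantified were called higher, against 5.48% of all probes tested, and 2 lower, against 29%.

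**Figure D2:**
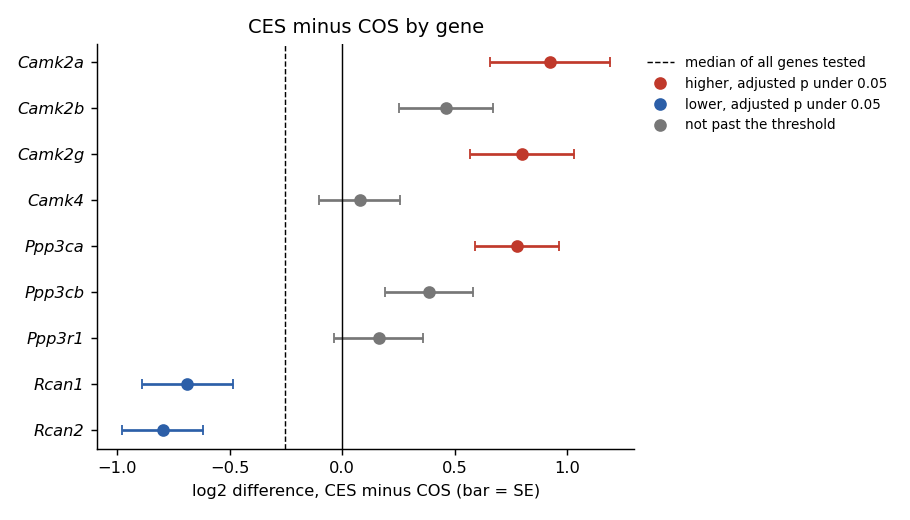
Log2 difference, CES minus COS, with its SE for each of the 9 quantified genes (4 rats a group). Colours mark the limma call, and the dashed line is the median of all genes tested at -0.25. Camk2a, Camk2g and Ppp3ca lie to the right, and Rcan1 and Rcan2 lie left of the dashed line.

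**Figure D3:**
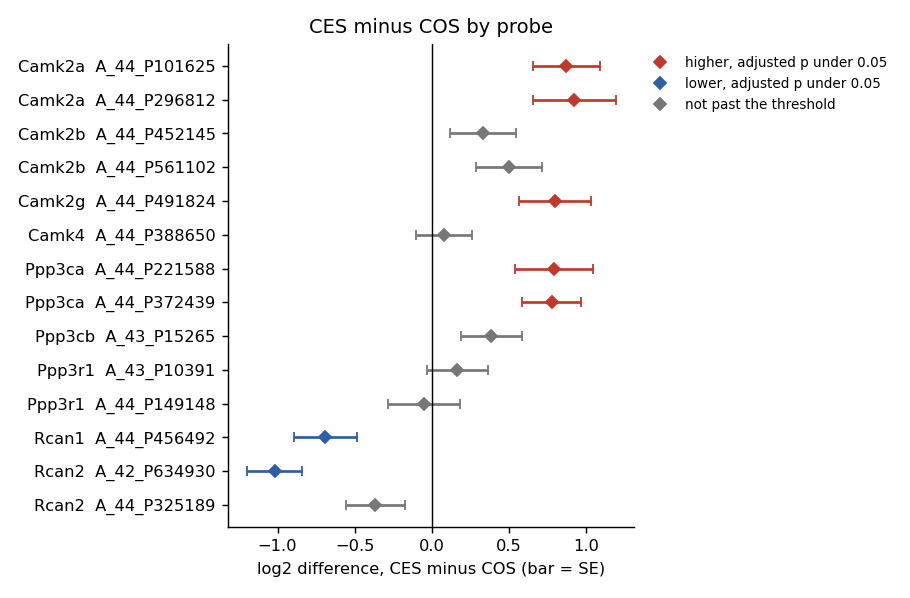
Log2 difference, CES minus COS, with its SE for each of the 14 quantified probes (4 rats a group), coloured by the limma call over all probes. The pairs of probes of Camk2a and Ppp3ca lie close together, and those of Rcan2 lie apart at -1.02 and -0.37.

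The array and the dye bear on these values. Each array held 2 rats of the same group in different dyes, so that array and group cannot be told apart. The array entered the fit as a random block, whose correlation was -0.01, and this does not separate array from group. Within each dye, with 2 rats a group and no test, Camk2a, Camk2g and Ppp3ca kept CES above COS without overlap, by 1.08, 0.92 and 0.73 in Cy3 and by 0.77, 0.68 and 0.82 in Cy5. In Cy5 the lowest CES and the highest COS rat were all but equal for Camk2a, at 3.494 and 3.490. The same held for Camk2g, at 2.731 and 2.730. Rcan1 and Rcan2 kept CES below COS in both, with differences of -0.87 and -0.87 in Cy3 and of -0.51 and -0.73 in Cy5. Camk4 turned from 0.22 in Cy3 to -0.07 in Cy5. Individual rats stood out across genes as well: COS replicate 4 was the lowest COS rat for 7 of the 9 genes, inhibitors included, and CES replicate 2 the lowest CES rat for 6 of them, Camk2a and the inhibitors excepted. With COS replicate 1, COS replicate 3, COS replicate 4 or CES replicate 1 left out in turn, none of the 3 higher calls passed. Rcan2 did not pass without COS replicate 3, and Rcan1 did not pass without COS replicate 1, 2 or 3 or without CES replicate 1.

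Differences between members of a family within a rat do not depend on the channel's scale. Of the 10 pairs planned, 7 could be computed, the other 3 needing Camk2d, and each was compared by a two-sided exact permutation test whose smallest possible p is 0.0286. Its 70 regroupings treat the rats as independent. Each array held 2 rats of the same group, and the test does not see this. Ppp3ca relative to its partner Ppp3r1 was higher in CES by 0.62 ± 0.11 (SE, exact p = 0.0286, adjusted over the 7 pairs 0.1), with all 4 CES rats above all 4 COS rats. Relative to Ppp3cb it was higher by 0.39 ± 0.12 (SE, exact p = 0.0286, adjusted 0.1), again without overlap. Camk2b relative to Camk2g differed by -0.34 ± 0.13 (SE, exact p = 0.0571, adjusted 0.133). For Camk2a the difference was 0.46 ± 0.22 relative to Camk2b (SE, exact p = 0.114, adjusted 0.16) and 0.13 ± 0.26 relative to Camk2g (SE, exact p = 0.629). Ppp3cb relative to Ppp3r1 gave 0.22 ± 0.12 (SE, exact p = 0.114, adjusted 0.16), and Rcan1 relative to Rcan2 gave 0.11 ± 0.07 (SE, exact p = 0.229, adjusted 0.267). No pair passed 0.05 after adjustment. With 7 pairs and a smallest possible p of 0.0286, a pair could not pass by itself even without overlap. The adjusted test therefore cannot decide on a single pair.

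**Figure D4:**
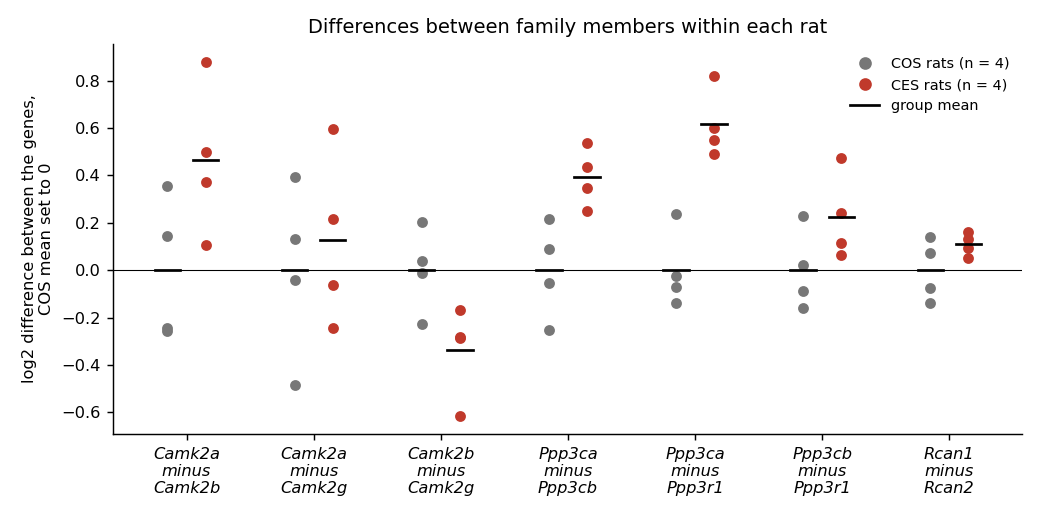
Log2 difference between the members of each pair in each rat (vertical axis, with the COS mean of each pair set to 0). Grey points are COS rats, red points CES rats, 4 each, and the lines are group means. The CES rats lie above the COS rats for Ppp3ca against Ppp3cb and against Ppp3r1.

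The wider pathway was read from 4 lists, written from general knowledge, and their calls are to be read against the 5.8% of all genes called higher and the 28.3% called lower. Of 10 other CaM kinases and CaM kinase II inhibitors, 9 were quantified, 2 were called higher and none lower, with a median of 0.59 relative to all genes. Both were the kinases that activate Camk1 and Camk4: Camkk2 rose by 1.12 ± 0.26 (SE, adjusted p = 0.0115, limma) and Camkk1 by 0.58 ± 0.20 (SE, adjusted p = 0.048, limma), with overlap. Under loess, quantile and common-spot scaling and the deposited log2 table, 4 to 6 of the 9 were called higher, the added genes being among Camk2n1, Camk2n2, Camkv and Pnck. Those 4 scalings called 3042 to 3348 of all genes higher and 1718 to 2221 lower, against 1238 and 6038 under the main scaling. Camk1d was not found under that name. Of the list for calmodulin and its buffers, the 5 genes Calm2, Calm3, Nrgn, Gap43 and Pcp4 were quantified and none passed the test, with differences from -0.19 for Gap43 to 0.53 for Calm2 and a median of 0.27 relative to all genes. Calm2 passed as higher under those 4 scalings, and Nrgn under common-spot scaling and the deposited table. Of 7 other calcineurin genes, 5 were quantified. Akap5, which anchors calcineurin at the synapse, rose by 1.19 ± 0.32 (SE, adjusted p = 0.0187, limma). The groups overlapped, with CES replicate 2 at 1.36 among COS rats at 1.10 to 1.93. Ppp3cc, another catalytic subunit, was lower in every CES rat by -1.13 ± 0.35 (SE, adjusted p = 0.0323, limma). Cabin1, an inhibitor of calcineurin, passed as higher under the same 4 scalings. Chp1 was not found under its name and Ppp3r2 was not quantified.

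Of 14 genes listed as targets, 10 were quantified. Of these, 4 were called lower, where 28.3% of all genes were, and none higher. The same 4 had every CES rat below every COS rat, as did 19.8% of all genes, and the median was -0.20 relative to all genes. Among them were the NFAT genes Nfatc4 at -1.01 ± 0.20 (SE, adjusted p = 0.00641, limma) and Nfatc3 at -0.93 ± 0.20 (SE, adjusted p = 0.0084, limma). The others were Creb1 at -1.06 ± 0.22 (SE, adjusted p = 0.00771, limma), the transcription factor that Camk4 phosphorylates, and Ppp1r1a, a protein phosphatase inhibitor that calcineurin dephosphorylates, at -0.65 ± 0.20 (SE, adjusted p = 0.0323, limma). Nfatc1, Nfatc2, Crtc1 and Mef2c were not found under those names. Under loess, quantile and common-spot scaling, normexp and the deposited log2 table, the direction of each of these 4 and of Camkk1, Camkk2, Akap5 and Ppp3cc was kept. None of the 8 passed under normexp. Under the other 4, Camkk1, Camkk2, Akap5 and Nfatc4 passed each time, Creb1 did not pass under loess (adjusted p = 0.0584, limma), and Nfatc3 did not pass under loess or common-spot scaling (adjusted p = 0.0553 and 0.0547, limma). Ppp1r1a and Ppp3cc passed under none of the 5, with differences of -0.46 to -0.25 and of -0.82 to -0.73. Under those 4 scalings Dnm1 and Mef2a, also listed as targets, were called higher, as were 3042 to 3348 of all genes. Without COS replicate 3 no gene of the 4 lists was called, and without CES replicate 1 none was called higher.

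**Figure D5:**
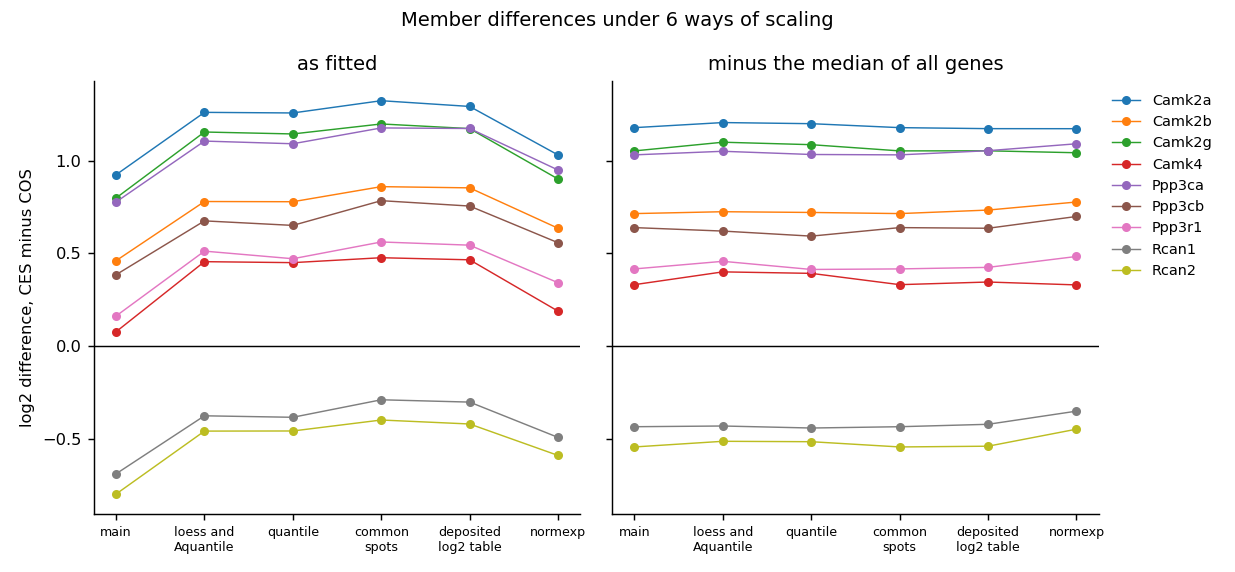
Log2 difference, CES minus COS, of the 9 quantified genes (one line each) under 6 ways of scaling the channels, as fitted on the left and minus the median difference of all genes on the right. On the right the lines are nearly level, with Camk2a highest at 1.18 under the main scaling and Rcan2 lowest at -0.54.

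Dissected DG holds many cell types, and in such tissue fewer cells of a type and less RNA per cell cannot be told apart. Marker genes were called in both directions, and their counts too are to be read against 5.8% of all genes higher and 28.3% lower. Prox1, the defining transcription factor of granule cells, was not quantified, and Rbfox3 was not found under that name. Of 5 quantified markers of granule cells and neurons, 1 was called higher and 2 lower, and their summed level (linear, relative to the channel median) was 211 to 297 in the COS and 251 to 323 in the CES rats. Markers of other hippocampal neurons had 2 of 5 higher and 1 lower, and summed to 160 to 306 and to 61.2 to 139. In that list Sst, a marker of interneurons, was lower in every CES rat, at -1.56 ± 0.31 (SE, adjusted p = 0.0065, limma), and the interneuron markers Gad1 and Gad2 gave -0.57 and -0.58 without passing. Those called higher, Wfs1 and Fibcd1, mark CA1. Wfs1 rose by 0.98 ± 0.22 (SE, adjusted p = 0.00961, limma), and Fibcd1 is given without a fold because it was well above background in 2 CES rats and in no COS rat. The granule cell marker C1ql2 was lower, at -1.23 ± 0.28 (SE, adjusted p = 0.0104, limma), as was Dsp at -1.24 ± 0.25 (SE, adjusted p = 0.00701, limma). Dsp, however, was well above background in only 3 COS and 2 CES rats. In the same list the neuronal gene Syt1 was higher, at 0.59 ± 0.17 (SE, adjusted p = 0.0272, limma), and Calb1 and Snap25 did not pass, at -0.28 and 0.20. Of 5 microglial markers 3 were lower and none higher, with sums of 30.0 to 46.3 and of 16.6 to 24.2. Of 4 astrocyte markers 1 was higher and none lower, with sums of 64.9 to 83.5 and of 36.4 to 75.7. None of 4 oligodendrocyte markers was called, with sums of 201 to 372 and of 278 to 419. Of 2 quantified endothelial markers 1 was lower, with sums of 15.7 to 20.1 and of 11.7 to 16.5, and none of 3 choroid plexus markers was called, with sums of 12.8 to 607 and of 15.2 to 190. The part of cell make-up in the differences of the kinase and calcineurin genes was not tested.

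Genes whose levels ran most like those of Camk2a and of Rcan1 over the 8 rats were sought among 13681 genes well above background in all rats, by the root mean square of the difference between levels centred on their own means. The 3 nearest to Camk2a carried only the transcript identifiers TC595880 (0.114), TC589296 (0.199) and FQ212409 (0.220). The 3 nearest to Rcan1 also had no gene symbol in the file and lay at 0.0589, 0.0650 and 0.0696. These describe likeness over 8 rats of which 4 share a treatment.

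Promoter windows of all 10 genes were read from RefSeq (GRCr8), 250 bases before to 50 after the annotated start, and searched on both strands for the CRE TGACGTCA and the first 5 of its letters, TGACG, through which CREB acts, for the core GGAAA shared by NFAT sites, and for the estrogen response element, the inverted repeat of GGTCA with 3 bases between. No window of the 10 held the full estrogen response element, which 0.0269% of all 33469 windows hold, and 4 held GGTCA alone, as do 40.5% of all. The full CRE was found for Rcan1 alone, against 1.83% of all windows, and it contains TGACG on both strands. TGACG was found for 5 of the 10, against 21.2%, and the NFAT core for Ppp3cb, Ppp3r1 and Rcan1, against 62.7%. Of the 3 genes called higher under the main scaling, Camk2a held TGACG 2 times and Camk2g and Ppp3ca none of these letters. The windows of Rcan1 and Rcan2 are shown because both genes were called lower under the main scaling. Both windows are given without the bases after the start, in lower case with TGACG and NFAT cores in capitals. They lie at chr11:45118237-45118486 and at chr9:24672190-24672439 (GRCr8, minus strand).
Rcan1: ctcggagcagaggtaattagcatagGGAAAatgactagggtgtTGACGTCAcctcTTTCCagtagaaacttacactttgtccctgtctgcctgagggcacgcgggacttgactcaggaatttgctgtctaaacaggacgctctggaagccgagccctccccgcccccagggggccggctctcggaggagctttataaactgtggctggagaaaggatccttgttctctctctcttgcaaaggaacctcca
Rcan2: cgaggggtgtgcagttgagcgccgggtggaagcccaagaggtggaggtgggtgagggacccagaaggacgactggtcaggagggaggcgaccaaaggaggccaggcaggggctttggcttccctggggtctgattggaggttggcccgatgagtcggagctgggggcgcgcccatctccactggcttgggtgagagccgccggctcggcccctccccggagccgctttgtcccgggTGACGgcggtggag
In the Rcan1 window 2 NFAT cores stand on either side of the CRE, whereas the Rcan2 window has TGACG 1 time, close to the start. A match describes these letters and is not a bound site, and the start annotated for Rcan1 lies inside the gene.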

How the data were processed

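RNA of 8 rat DG samples was hybridised to 4 two-colour arrays of 1 slide, 2 rats of a group per array, replicates 1 and 3 in Cy3 and 2 and 4 in Cy5. As deposited, the scanner files hold spot and background intensity from Agilent Feature Extraction 10.7.3.1, not yet normalized. The authors also deposited log2 values, which equal the log2 of median signal minus background relative to the column median for 100% of the 27921 to 28267 spots listed per rat, within a tolerance of 0.01.

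Here each spot's background median was taken from its mean signal and the rest set relative to the median of valid spots (foreground at least 2 times background) of the channel, then averaged over a gene's spots valid in all 8 rats (27642 in all) and taken to log2, giving 21332 genes. The groups were fitted with limma 3.58.1 (R 4.3.3, statmod 1.5.0), with dye as a term and array as a random block, after being tested on simulated data. In the simulation, where 200 of 21332 genes were changed, 63% of log2 changes of 1 and 92% of those of 2 were called. Of its 167 calls, 12 were false. In the fit of the 8 rats the median SE was 0.197, and the number of arrays limits the precision. The methods name 4 animals a group, as biological replicates. At an unadjusted p under 0.05 there were 9633 genes. Figures were drawn in Python 3.11.15 with matplotlib 3.10.9.

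Rats of the same replicate number deviated together across groups (r = 0.21 to 0.34), but the number also carries the dye, and within a dye r was -0.06 to -0.04. No pairing beyond the shared dye was seen.

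Members and lists were chosen with earlier results of these data known. All members were named, and of the wider lists the genes limma called, up to 5 a list. From these lists 1 gene is not reported here. Markers were given as lists, apart from single markers of neurons, which were named after their values were seen, as were wider-list genes called only under another scaling. Genes most like Camk2a and Rcan1 were the 3 with the smallest root mean square difference. Alternatives covered background correction, normalization, spot filters, blocks, probe averaging, gene names through RefSeq, the deposited table, the methods' t-test and each rat left out.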

Additional observations from a re-analysis of the deposited data

How the results depend on the processing

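Set against the median of all genes, the 9 quantified genes kept their sign under all 26 alternatives, Rcan1 and Rcan2 below 0 and the other 7 above. Setting a difference against the median takes out any shift common to all genes. Common-spot scaling, the fits without array block or dye term, the replicate block and the methods' t-test leave the relative difference unchanged by construction. For Camk2a it was 1.18 in each. For Camk2g and Rcan1, read by 1 spot each, the fitted difference also stayed at 0.80 and -0.69 under several other alternatives. These were no filter on valid spots, well-above-background spots, outlier spots left out, the brightest probe, averaged log2 values and RefSeq names. There the relative difference of these genes moved only with the median of all genes. Camk2a, Camk2g and Ppp3ca were each called in 19 of the 26 (adjusted p from limma or the methods' t-test 0.00598 to 0.152, 0.00899 to 0.172 and 0.00273 to 0.156), Rcan2 in 18 (0.00249 to 0.460), Rcan1 in 14 (0.00773 to 0.608), Camk2b in 6, Ppp3cb in 4 and Camk4 and Ppp3r1 in none. Averaging log2 values over probes was chosen after seeing the data. With the replicate block the members gave 3 higher and 2 lower calls, and no member call changed. All genes then gave 1076 higher and 6131 lower.

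The counts of members called higher and lower (main 3 and 2), of wider-list genes (main 3 and 5) and of all genes (main 1238 and 6038) moved as follows. Normexp gave 0 and 0, 0 and 0, and 123 and 454. Loess with Aquantile gave 5 and 0, 11 and 1, and 3042 and 1892. Quantile normalization gave 5 and 0, 9 and 3, and 3055 and 2221. Scaling over spots valid in all rats gave 5 and 0, 11 and 2, and 3348 and 1718. The deposited log2 table gave 5 and 0, 11 and 3, and 3275 and 1927. No filter on valid spots gave 0 and 0, 0 and 2, and 403 and 2679. A foreground of at least 3 times background left 1 member, 3 wider genes and 2828 of all genes lower. Well-above-background spots gave 5 wider genes higher, and no dye term 6. The methods' t-test gave 0 after adjustment throughout, with 6103 genes at an unadjusted p under 0.05. Higher genes were 17.0% of all calls under the main scaling and 61.7%, 57.9%, 66.1% and 63.0% under loess, quantile, common-spot scaling and the deposited table. The all-gene median there was 0.06, 0.06, 0.15 and 0.12. Common-spot scaling differs from the main scaling only in the spots that give each channel's median. It therefore shifted the difference of every gene by the same amount. Camk2a went from 0.92 to 1.32 and Rcan1 from -0.69 to -0.29. Why the share of valid spots differed between rats was not tested.

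Leaving out 1 rat in turn gave 0 to 4 members higher and 0 to 2 lower, 0 to 8 wider-list genes higher and 0 to 6 lower, and 257 to 1855 of all genes higher and 914 to 7012 lower. The difference of Camk4 ran from -0.027 to 0.21 and of Camk2a minus Camk2g from -0.036 to 0.26. Without COS replicate 3 no member was called, and 257 and 914 of all genes were. The 3 pairs with Camk2d could not be computed.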
